A study of Mus musculus with 7 samples.

Results

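The sites described here are 1035 of 30946 stretches of mouse DNA, each 500 bp long, whose reporter RNA was at least 1.5-fold higher in the stimulated pPGK library than in the unstimulated one and which were not low before the stimulus. They make up 3.34% of the stretches, called bins below. The study screened DNase hypersensitive sites for silencer activity in the mouse line P5424, which was grown in RPMI medium with serum and resembles immature T cells, by CapStarr-seq: captured fragments are cloned into a reporter plasmid inside the transcript they act on, and their RNA is counted against the plasmid input. The labels give 7 samples with 1 library in each group. There are reporter libraries with 3 promoters, namely SCP1 (super core promoter 1, a strong synthetic core promoter), pPGK (the phosphoglycerate kinase promoter, a housekeeping promoter) and pR-Ea, an input for each of them, and a pPGK reporter library labelled PMA_I. All samples carry the same entry of PMA and ionomycin as treatment, so the title of that library is the only label that sets it apart. All libraries share the cell line. With 1 library in each group no difference below has a replicate check, no p-value is given, and each one is a difference between libraries.

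The phorbol ester PMA switches on protein kinase C and Ras signalling, and ionomycin is an ionophore that lets calcium into the cell. Together they imitate the signal of an engaged T cell receptor. They are known to activate the transcription factors AP-1, NF-kappaB and NFAT, which bind enhancers and promoters of early response and cytokine genes. A fragment in this assay is measured outside its own locus, so its output reports what its sequence does in the plasmid. Output is relative to the other sites, because every library is scaled to its own total, and no neutral insert was used here as a baseline.

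Bins were counted by the midpoint of the 315 bp interval that each deposited line gives, on build mm9, and a bin was kept if it held at least 50 input reads with each of the 3 promoters. All lines have this same length, so they do not show how long each cloned fragment was. Activity is the log2 ratio of reporter to input reads and change is the log2 ratio of PMA_I to pPGK reporter reads, both with a pseudocount of 1 and scaled to the totals over the kept bins. Only lines with a mapping quality of at least 30 were counted. A bin was chosen if the change was at least 1.5-fold upward and the pPGK activity was above -0.5. The pPGK reporter, the PMA_I reporter and the pPGK input therefore selected the members: they were chosen by these measured values, which are given as descriptions. SCP1 and pR-Ea reporter reads had no part in the choice. No gene or sequence is named for any site, since no genome or annotation of build mm9 was used here.

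In kept bins the libraries held 27336124 pPGK and 31440889 PMA_I reporter reads against 11460124 input reads, 35631136 SCP1 reporter reads against 28110981, and 29883342 pR-Ea reporter reads against 11031471. Intervals given below are exact (Clopper-Pearson) 95% intervals of a share of bins, with bins treated as independent draws. Settings that use a lower bound, or a counting interval, take the exact 95% interval of the ratio of PMA_I to pPGK reads. That interval covers counting error only, since copies made by PCR are not independent molecules. The standard error (SE) given with a change is computed from how reads are shared among distinct 5' positions of the bin in each library. It treats the positions of both libraries as independent draws and does not use the change at each position. Variation between cultures is not covered.

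The pPGK and PMA_I files differ in where their reporter reads may lie, and bins chosen for a rise held more of the affected reads than other bins. All PMA_I reporter reads lay at positions of mapping quality 30 or more, but only 66.7% of pPGK reporter reads did. In kept bins, 8.63% of the PMA_I reporter reads lay at positions that the pPGK file lists only below 30, where pPGK reads were not counted. The reverse held for 0.393% of pPGK reads. In the median member that share of PMA_I reads was 11.1%, against 0.243% in the non-low bins whose change was within 1.5-fold and 0 in the non-low bins that were 1.5-fold lower. The median was 6.36% in bins that rose as much from a pPGK activity of -0.5 or less, and 0.383% over all kept bins. Such reads count on the PMA_I side only, so a choice by rise favours bins that hold them. The share was over 10% in 536 of the 1035 members, or 51.8%, and in 14.1% of the non-low bins within 1.5-fold. It was over 10% in 41.5% of the low bins that rose and in 17.1% of all kept bins. The choice of members and many of the changes are therefore also given with common positions, meaning that a position listed below 30 in any file was left out of all files.

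With common positions, 552 of the 1035 members (53.3%) still met both limits of the choice. Of the others, 376 were non-low bins within 1.5-fold, 89 fell under the input minimum, 11 were non-low bins 1.5-fold lower, 4 were low bins that were 1.5-fold higher and 3 were low bins that were not. Other parts lost bins too. Of the 1151 low bins that were 1.5-fold higher, 838 (72.8%) met their limits again. Non-low bins that were 1.5-fold lower kept 191 of 298 at 50 to 99 pPGK input reads. At 400 or more they kept 112 of 222, where members kept 30 of 108. The median change over all 1035 was 0.72 by the rule and 0.63 with common positions, where 568 members were at least 1.5-fold higher and 107 were at or below 0. Of all kept bins, 2009 were 1.5-fold higher with common positions (6.49%), and 910 of the 24383 non-low bins (3.73%). The 552 members that met the limits both ways are called retained below, and the other 483 are called lost. The retained set was defined after the data were seen. Activities and the strand, top-position, distinct-position and SE values below use all positions of the rule, also for retained members, unless common positions are named.

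**Figure D1:**
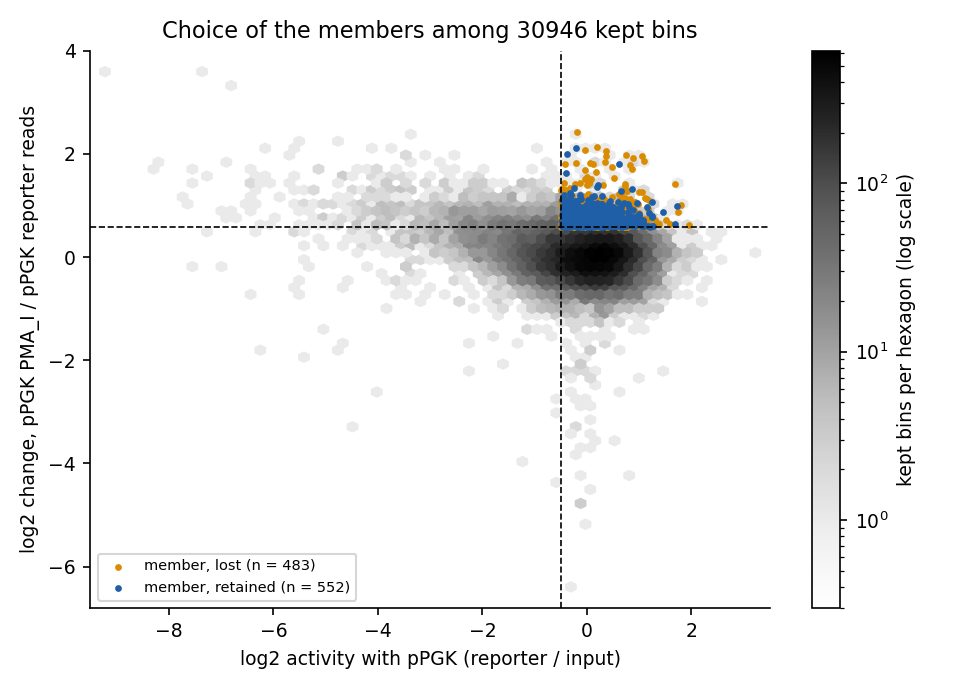
Each hexagon counts kept bins by log2 activity with pPGK (x axis) and log2 change of PMA_I over pPGK reporter reads (y axis); dashed lines are the limits of the choice. The 552 retained members (blue) and 483 lost members (orange) fill the upper right corner, and of the 133 members at least 2-fold higher 88 are orange.

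The rise had a mirror image of about the same size. By the rule 1035 of 24383 non-low bins were 1.5-fold higher (4.24%) and 984 were 1.5-fold lower (4.04%). At 2-fold the counts were 133 higher (0.545%, against 1.41% of all kept bins) and 129 lower (0.529%, against 0.53%). With common positions, where 30106 bins were kept, the counts were 883 higher and 740 lower at 1.5-fold, and 39 higher and 92 lower at 2-fold, so the order of the sides at 2-fold turned. Low bins, those with a pPGK activity of -0.5 or less, were not balanced, with 1151 that were 1.5-fold higher and 198 that were lower. The same pPGK reporter count raises the activity and lowers the change. A split by pPGK activity thus by itself favours rises among low bins and falls among non-low bins. Its part in these counts was not tested. Over all kept bins 2186 were 1.5-fold higher (7.06%) and 1182 were lower (3.82%).

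The median member went from 322 pPGK reads to 638 PMA_I reads. Its pPGK activity was 0.18 and its PMA_I activity 0.97. The smallest member count was 88 reads in pPGK and 165 in PMA_I, and the largest were 14558 and 27922. Changes were mostly just past the limit, with a 75th percentile of 0.85 and a 90th percentile of 1.06. In PMA_I 496 members, or 47.9% (interval 44.8% to 51.0%), were at least 2-fold above input, against 7.57% of all kept bins and 9.6% of non-low bins; the same reads chose the members, so nothing is read from this. Before the stimulus 46 members were that high with pPGK (4.44%), against 4.84% of non-low bins and 3.81% of all kept bins.

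At the limit of the choice, the members with the smallest changes were chr19:5686501-5687000, from 3518 to 6071 reads, chr16:57910001-57910500, from 356 to 615, and chr16:10886501-10887000, from 681 to 1176, each with a change of 0.59. Just outside lay chr12:8998501-8999000, from 483 to 834 reads, chr11:53751001-53751500, from 752 to 1298, and chr19:7238501-7239000, from 678 to 1170, each with a change of 0.58. The members with the lowest pPGK activity were chr13:10732001-10732500, chr10:88387501-88388000 and chr5:102064501-102065000, all at -0.50, and the rising bins chr16:3851001-3851500, chr2:28315001-28315500 and chr1:58903001-58903500 lay just below, also at -0.50. Neither limit falls at a gap in the values.

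Members were shallow bins. Their median input was 258 SCP1 reads, 116 pPGK reads and 108 pR-Ea reads, against 521, 183 and 184 in the non-low bins within 1.5-fold. Among non-low bins with 50 to 99 pPGK input reads 428 of 5774 were members (7.41%), and the share was 4.57% at 100 to 199, 2.53% at 200 to 399 and 2.14% at 400 or more. Retained members made up 4.59%, 2.65%, 0.928% and 0.595% of the same classes. Bins that were 1.5-fold lower thinned out less and not steadily, with 5.16%, 3.56%, 3.24% and 4.4%. Those that were still non-low and 1.5-fold lower with common positions made up 3.31%, 2.12%, 1.65% and 2.22%. The part of depth in the choice of members was not tested.

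The SE over positions was about as large as the change. Its median was 0.77 in members, for a median change of 0.72, and 0.71 over all kept bins. It reflects how far reads gather at few positions and is not a spread of the change between positions. The change exceeded 2 SE in 79 members (7.63%), of which 20 were retained, and in 326 of all kept bins (1.05%). On the other side 96 of the 984 non-low bins that were 1.5-fold lower passed 2 SE downward (9.76%). A median of 24.1% of a member's pPGK reads and 26.1% of its PMA_I reads came from 1 position. After the position with most reporter reads was left out of each library, 784 members (75.7%) were still 1.5-fold higher, against 4.78% of non-low bins and 7.54% of all kept bins, and 19 were at or below 0. Among retained members these counts were 373 of 552 and 17. The counts past 2 SE and without the top position reuse reads that chose the members. They describe the members and are no check of the rise.

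Reads of both strands mostly moved the same way. A position listed on both strands counts on each of them here. Of 847 members with at least 50 reads on each strand in the pPGK pair, 701 were higher on both (82.8%) and 146 had opposite signs. At 1.5-fold on both strands the counts were 206 of these 847 members and 371 of 26679 kept bins with such reads. Retained members had 369 of 430 higher on both strands (85.8%). The non-low bins that were 1.5-fold lower had 676 of 796 lower on both (84.9%). Over all kept bins with such reads 27.2% were higher on both strands. A bin chosen for a rise needs at least 1 rising strand, so these shares describe the members and are no check of the rise.

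**Figure D2:**
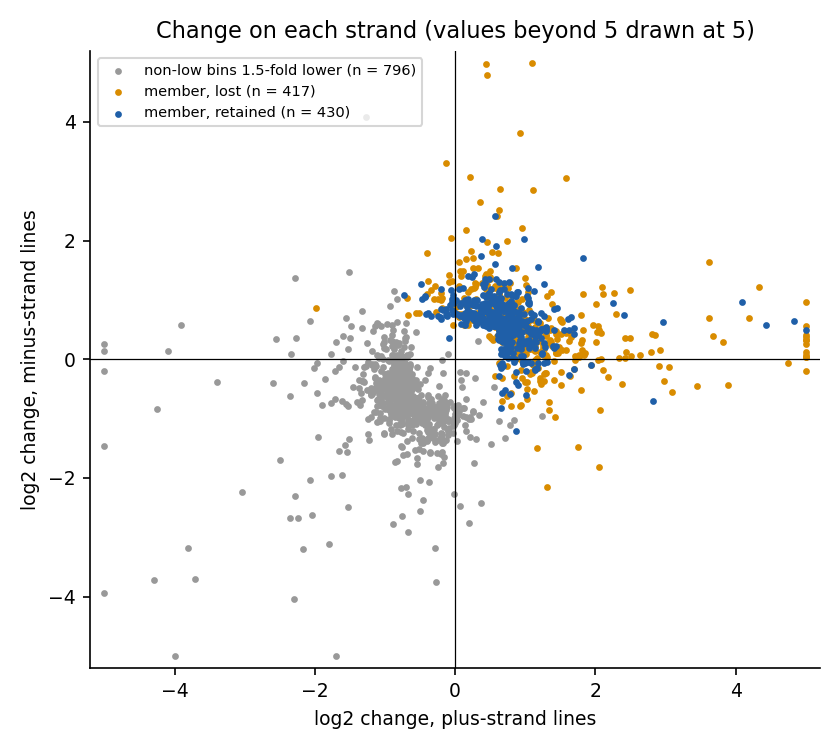
Log2 change of PMA_I over pPGK reporter reads on plus-strand lines (x axis) and minus-strand lines (y axis), for bins with at least 50 reads on each strand. Most members (blue and orange) lie to the upper right of the axes, and the 796 non-low bins that were 1.5-fold lower (grey) lie mostly in the lower left.

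Positions within a bin give the finest view, each being 1 end of a cloned fragment. Among common positions with at least 10 reads in the pPGK pair, 5556 of 7377 in retained members were higher in PMA_I (75.3%). The share was 65.6% over all members, 50.3% in non-low bins within 1.5-fold and 24.9% in non-low bins that were 1.5-fold lower. In 39 of the 511 retained members with at least 5 such positions, all of them were higher, as in 301 of 28470 kept bins with that many. Counted by distinct positions in place of reads, the median change was 0.24 in members and -0.12 over all kept bins, and 204 members were 1.5-fold higher (19.7%), against 3.96% of non-low bins and 5.31% of all kept bins. A count of distinct positions leaves out how many reads each position has. The reads at these positions also chose the bins, so the shares describe the bins and are no check of the rise.

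Most members had no member beside them. The 1035 members formed 1013 separate runs, of which 992 were single bins, 20 were pairs and 1 held 3 bins, and 595 members had no kept bin beside them. The 476 kept bins next to a member had a median change of 0.17, and 64 of them were 1.5-fold higher (13.4%) and 11 lower (2.31%). Over all kept bins 7.06% were higher and 3.82% lower. Bins of the pairs and of the run of 3 lie next to a member and were themselves chosen for a rise. Neighbours of non-low bins that were 1.5-fold lower had a median of -0.26, with 14.0% lower and 1.97% higher. Beside retained members the median was 0.22 in 168 bins. Beside non-low bins within 1.5-fold the median was -0.07 and 4.11% of neighbours were 1.5-fold higher. Neighbours of low bins that were 1.5-fold higher had a median of 0.35, with 31.9% of them 1.5-fold higher. Adjacent bins hold different fragments whose sequences overlap, from the same libraries.

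Members were found on every autosome and on the X chromosome. They made up 3.06% of non-low bins on chromosome 9, the lowest rate of an autosome, and 5.71% on chromosome 18, the highest. On the mitochondrial genome 6 of 10 kept bins were members, singled out after their values were seen. From lowest to highest start these were chrM:2501-3000 (289 to 505 reads), chrM:3001-3500 (503 to 918), chrM:4501-5000 (1087 to 1970), chrM:11501-12000 (922 to 1602), chrM:13001-13500 (763 to 1378) and chrM:14501-15000 (480 to 913). Their changes lay between 0.59 and 0.72, and 4 of them were retained. Their SCP1 activities lay between -0.43 and 0.10.

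SCP1 and pR-Ea show what the sites do with other promoters, in libraries without the label of a stimulus. With SCP1, 420 of 1035 members were above 0 (40.6%, interval 37.6% to 43.6%), against 49.5% of non-low bins and 40.7% of all kept bins. Retained members had a lower share, 192 of 552 (34.8%, interval 30.8% to 38.9%), and lost members 47.2%. With pR-Ea, 546 members were above 0 (52.8%, interval 49.7% to 55.8%), against 56.9% of non-low bins and 48.4% of all. Retained members had 46.7% and lost members 59.6%. Bins are not replicates, and the intervals treat them as independent draws.

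In each of the 4 depth classes given above, fewer retained members than non-low bins within 1.5-fold were above 0 with SCP1. Retained members numbered 265, 202, 55 and 30 from the lowest to the highest class of pPGK input. They were above 0 with SCP1 in 35.8%, 31.7%, 38.2% and 40.0% of cases, and non-low bins within 1.5-fold in 47.2%, 48.7%, 50.2% and 52.6%. All members together had 39.7%, 35.5%, 45.3% and 53.7%, so the deepest class was not lower. With pR-Ea the members' shares were 45.6%, 51.9%, 62.0% and 71.3% and those of non-low bins within 1.5-fold 53.9%, 55.7%, 57.2% and 62.3%, so members were lower in the shallower classes and higher in the 200 to 399 class and above. Retained members had between 42.3% and 54.5%, lower than the latter in each class. In bins with a pPGK activity from -0.5 to 0 the median SCP1 activity was -0.44 in 371 members and -0.29 in bins within 1.5-fold. From 0 to 0.5 it was -0.10 and 0.01, and from 0.5 to 1 it was 0.04 and 0.26. Above 1 the medians were 0.63 in 46 members and 0.60. The median SCP1 activity of all kept bins was -0.16. Measured against the median of all kept bins, 50.9% of members were higher with SCP1 and 60.2% of non-low bins, and with pR-Ea 55.1% and 58.6%.

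Few members were strongly active or strongly low with the other promoters. With SCP1 42 members were at least 2-fold above input (4.06%), against 4.72% of non-low bins and 3.78% of all, and 111 were at least 2-fold below (10.7%), against 6.34% and 15.0%. With pR-Ea 14 were 2-fold above (1.35%), against 0.943% and 0.811%, and 42 were 2-fold below (4.06%), against 2.95% and 8.3%. Among retained members 14 and 67 passed these limits with SCP1, and 6 and 31 with pR-Ea. Activity was above 0 with all 3 promoters in 227 members (21.9%), against 27.6% of non-low bins and 21.7% of all kept bins. Low bins that were 1.5-fold higher had a median activity of -1.47 with SCP1 and -0.95 with pR-Ea, against -0.15 and 0.03 in members. Their median PMA_I activity was -0.86.

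**Figure D3:**
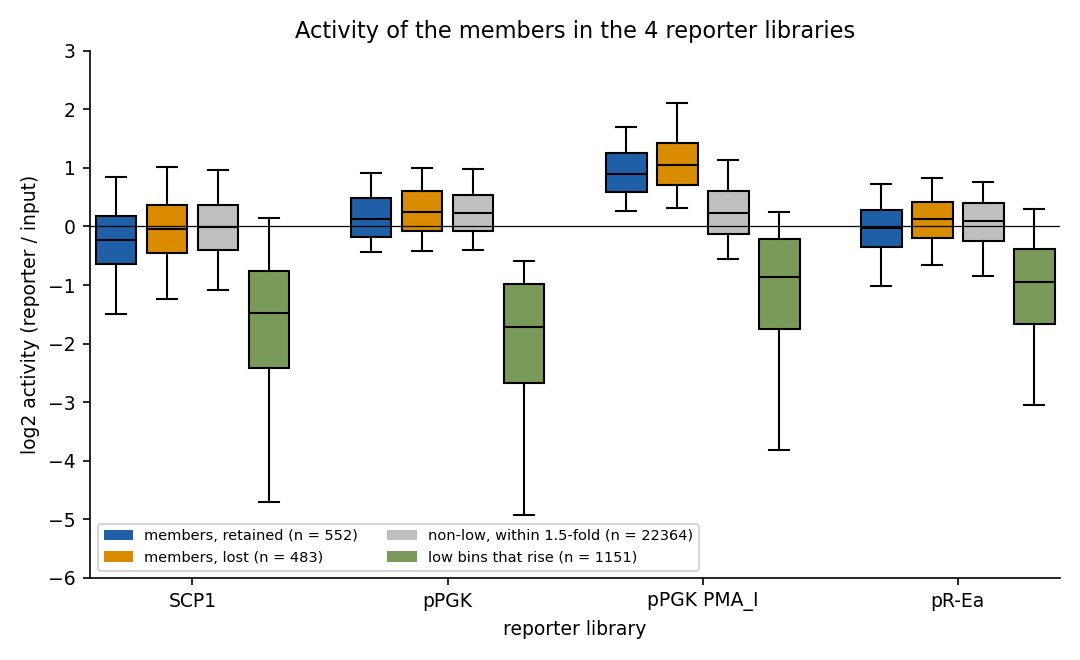
Log2 activity (reporter over input, y axis) in the 4 reporter libraries for retained members (blue), lost members (orange), non-low bins within 1.5-fold (grey) and low bins that were 1.5-fold higher (green); boxes are quartiles with the median, whiskers the 5th and 95th percentiles of bins. Members lie above the grey boxes in pPGK PMA_I, which chose them, and retained members have the lower SCP1 median of -0.23.

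The largest changes of single sites were named by a rule that asked for at least 200 PMA_I reads on at least 20 positions, a rise on each strand and a rise of 1.5-fold without the top position. Called the rule of support below, it uses only reads of the pPGK pair, which chose the members. Passing it is therefore not independent support for a rise. It left 486 members, 223 of them retained, and the same rule turned around left 458 of the 984 non-low bins that were 1.5-fold lower. The leader was chr12:114663001-114663500, from 3182 to 19777 reads (change 2.43, SE 0.31). Of its PMA_I reads 91.2% lay at positions listed below 30 in the pPGK file, which held 114247 pPGK reads in this bin when no line was left out. With common positions it went from 877 to 659 reads, a change of -0.52. The bin beside it, chr12:114662501-114663000, went from 10804 to 18947 reads by the rule (0.61) and from 5470 to 5008 with common positions (-0.24).

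At 6 more of the 10 leading sites the change was under 1.5-fold with common positions, below 0 at the first pair given here and above 0 at the others. Chr11:3069001-3069500 went from 422 to 2038 reads (change 2.07, SE 0.83) and had a change of -0.12 with common positions. At chr8:13918001-13918500 the counts were 214 and 891 (1.85, SE 0.75), with -0.24 over common positions. At chr19:24220001-24220500 the counts were 925 and 3779 (1.83, SE 0.39), with 0.16 over common positions. Reads at chr3:157105501-157106000 went from 982 to 3907 (1.79, SE 0.87), with 0.29 over common positions. The changes of chr11:3477501-3478000 and chr2:179800501-179801000 went from 1.71 and 1.55 to 0.50 and 0.27. In these 6 sites between 52.0% and 73.2% of PMA_I reads were at positions listed below 30 in the pPGK file.

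The other 3 sites were retained. ChrX:82818501-82819000 went from 118 to 547 reads by the rule and from 118 to 224 with common positions, a change of 0.81, and chr13:54706001-54706500 from 374 to 1338 (1.63, SE 0.43; 0.71). Of their PMA_I reads 59.0% and 50.4% lay at positions listed below 30 in the pPGK file. Chr16:94941001-94941500 went from 825 to 3338 reads (1.81, SE 0.85) and kept a change of 1.68 with common positions, from 825 to 2851 reads. Among these 10 it alone had a change above 1 over common positions.

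**Figure D4:**
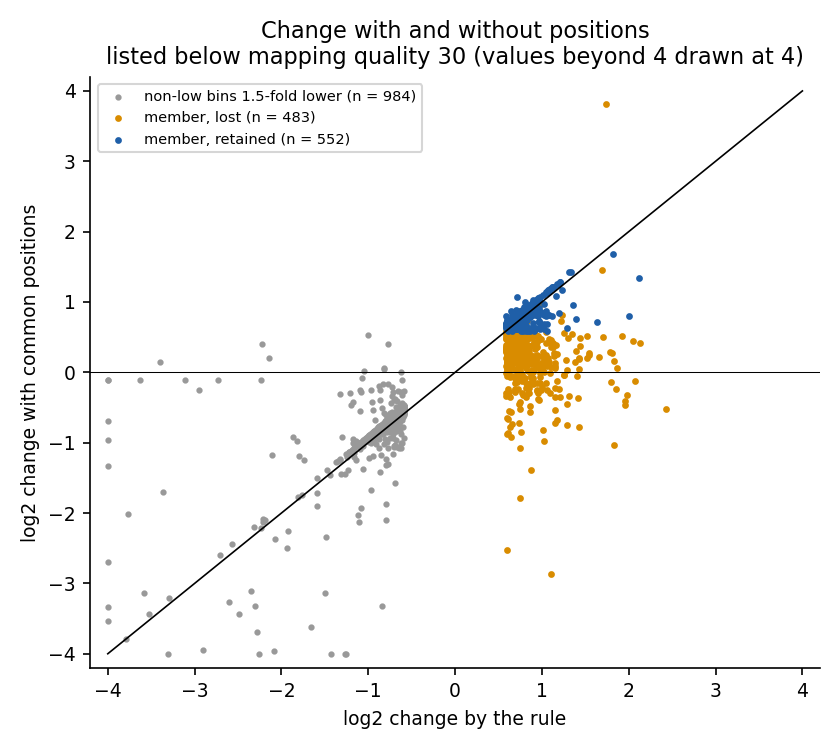
Log2 change by the rule (x axis) and with common positions (y axis) for retained members (blue), lost members (orange) and non-low bins that were 1.5-fold lower (grey); the diagonal marks equal values and values beyond 4 are drawn at 4. Sites past 1.5 on the x axis lie mostly far below the diagonal, as with the leader, at 2.43 and -0.52.

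The site on chromosome 16 covered adjacent bins that were both retained. In chr16:94941001-94941500 the plus strand went from 617 to 2525 reads and the minus strand from 208 to 813, changes of 1.83 and 1.71. In chr16:94941501-94942000 the reads went from 1500 to 4287 (change 1.31, SE 0.69), with 349 to 974 on the plus and 1151 to 3313 on the minus strand, changes of 1.27 on both. Its change with common positions was 1.42. Of common positions with at least 10 reads, 14 of 16 were higher in the first bin and 14 of 22 in the second. Activity went from 0.62 to 2.44 in the first bin and from 0.86 to 2.18 in the second. With SCP1 the bins were at 0.09 and -0.04, and with pR-Ea at 0.13 and 0.74, so the site was near the average of sites with SCP1 and well above it in PMA_I.

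Among the 223 retained sites that met the rule of support, the next by change over common positions were smaller, in a list made after the data were seen. Chr14:69979001-69979500 went from 761 to 2023 reads (change 1.21, SE 0.65; 1.28 with common positions), and 23 of 27 positions were higher. Its strands differed, at 0.38 on the plus and 2.02 on the minus strand. Chr8:86272501-86273000 went from 136 to 355 reads (1.18, SE 0.79; 1.26), with all 9 positions higher. Chr7:148127501-148128000 went from 211 to 556 reads (1.19, SE 0.86; 1.25), with changes of 1.13 and 1.16 on the strands. These sites had SCP1 activities of -0.45, 0.41 and -0.59.

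The list went on with chr11:53569001-53569500, from 140 to 352 reads, chr6:39361501-39362000, from 126 to 316, chr14:30045501-30046000, from 116 to 290, chr12:82094501-82095000, from 162 to 399, and chr12:113939501-113940000, from 108 to 294. Their changes with common positions lay between 1.17 and 1.21. All 5 rested on a pPGK count of at most 162 reads. At chr12:113939501-113940000 all 8 positions were higher, and at chr6:39361501-39362000 4 of 8. SCP1 activity was below 0 in each of the 5, where 34.8% of retained members and 40.7% of all kept bins were above 0. PMA_I activity lay between 0.64 and 0.99.

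**Figure D5:**
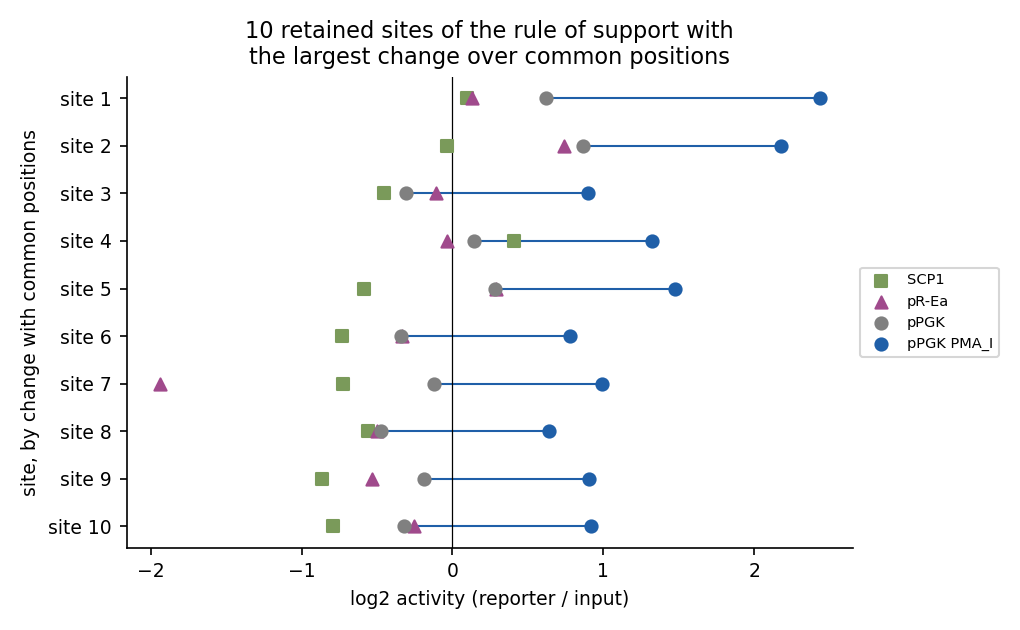
Log2 activity (x axis) in the 4 reporter libraries at the 10 retained sites of the rule of support with the largest change over common positions, in the order of the text, sites 1 and 2 being the adjacent bins on chromosome 16; blue lines join pPGK to pPGK PMA_I. SCP1 lies below 0 in 8 of the 10, and PMA_I reaches 2.44 and 2.18 at sites 1 and 2.

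The most deeply read members had small SEs. Of the 5 members with most PMA_I reads none was retained. Chr17:72814501-72815000 had 12028 pPGK and 27922 PMA_I reads (change 1.01, SE 0.22) and 0.08 with common positions. Chr3:75750501-75751000 had 14558 and 26798 (0.68, SE 0.24) and 0.58 with common positions, just short of the limit. Chr8:97955001-97955500 had 11921 and 22089 (0.69, SE 0.24) and 0.57, also just short. The others were the adjacent bins on chromosome 12 given above.

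Among the 223 retained sites that met the rule of support, the 5 with most PMA_I reads had changes of 0.62 to 0.84 over common positions. They too were picked out after the data were seen. Chr9:121863001-121863500 went from 8126 to 18295 reads (0.97, SE 0.33; 0.72 with common positions), with 41 of 82 positions higher. Chr10:93536001-93536500 went from 6668 to 13162 (0.78, SE 0.20; 0.84), with 164 of 174 positions higher, and only 2.10% of its PMA_I reads were at positions listed below 30 in the pPGK file. Nearly all of its reads were on the plus strand, 6541 and 13008, where the change was 0.79, and the minus strand held 285 and 390 (0.20). Its activity went from -0.44 to 0.34, with -0.43 for SCP1 and -0.25 for pR-Ea, so it passed from below to above the average of sites. Chr3:78750501-78751000 (4518 to 10188 reads), chr3:8769001-8769500 (3782 to 6914) and chr11:34581001-34581500 (2730 to 6397) had changes of 0.71, 0.62 and 0.81 with common positions.

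Of the sites that met the rule of support, those with the highest activity in PMA_I were already above input with pPGK. Chr2:6266001-6266500 was highest at 3.10, from 1.68 with pPGK and 2381 to 7348 reads, and its change with common positions was 0.20. Chr17:72814501-72815000 followed at 2.80 from 1.79. Chr2:26226501-26227000 was at 2.71 from 1.72, with 658 and 1505 reads and a change of 0.66 with common positions, and it was the 1 retained site of the 5. It was at 0.82 with SCP1 and -1.49 with pR-Ea. Chr3:157105501-157106000, given above, was at 2.62, and chr2:163527501-163528000 at 2.58 from 1.96 (0.62 by the rule, -0.55 with common positions).

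The other promoters were then ranked over the 486 sites that met the rule of support. With SCP1 the highest were chr17:72814501-72815000 at 3.82, from 55239 reporter and 3083 input reads, chr2:163527501-163528000 at 3.23 and chr2:6266001-6266500 at 2.74, none of them retained and all among the 5 highest in PMA_I. These were at 0.92, 0.60 and 0.22 with pR-Ea. The lowest with SCP1 were chr12:99592501-99593000 at -4.06, with 14 reporter and 196 input reads, chr4:65025001-65025500 at -2.88, with 24 and 144, and chr3:52157501-52158000 at -2.08, with 28 and 96. All 3 were retained, with changes over common positions of 0.66, 0.88 and 0.86, and their pPGK activities were -0.40, 0.28 and -0.24.

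With pR-Ea the highest were chr15:44547501-44548000 at 1.17, chr2:178263001-178263500 at 1.16 and chr1:193162501-193163000 at 1.15, none of them retained. The lowest were chr6:39361501-39362000 at -1.94, with 35 reporter and 50 input reads, chr19:10826001-10826500 at -1.73, with 226 and 277, and chr8:105186001-105186500 at -1.53, with 308 and 329. All 3 were retained. Chr19:10826001-10826500 went from 604 to 1404 reads (1.01, SE 0.53; 1.10 with common positions), with 18 of 23 positions higher, and chr8:105186001-105186500 from 520 to 1113 (0.89, SE 0.62; 0.98), with 14 of 16. Their SCP1 activities were -0.66 and -0.62. At chr8:105186001-105186500 none and at chr19:10826001-10826500 0.214% of PMA_I reads lay at positions listed below 30 in the pPGK file.

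The longest run of members covered 3 bins on chromosome 7. Chr7:138559501-138560000 went from 637 to 1270 reads (0.79), chr7:138560001-138560500 from 2487 to 4411 (0.62) and chr7:138560501-138561000 from 211 to 946 (1.96). With common positions the changes were 0.54, 0.51 and -0.40, and none of the 3 was retained. The third bin had a change of -0.56 on its minus strand.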

How the data were processed

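Reporter and input reads of CapStarr-seq libraries from P5424 cells were analysed in 4 files without headers. Build mm9 and the tools bedtools 2.28.0, Bowtie2 and SAMtools are named, per the submitters' processing notes, without their order or settings. Deposited columns 7 and 8 hold raw counts per 5' position, read as reporter and input from their values, which no label states. The deposited column 5 is a mapping quality score. A position listed on both strands carries the same counts on both lines and was counted once, on its plus-strand line. PMA_I has no input of its own in the labels, so its activity uses the pPGK input. Members and lists were chosen with earlier results of these data known. Sites were named by the rules given with them: size and support of the change, reads, activity, nearness to the limits and the longest run. Lists of retained sites and the mitochondrial bins were added after the data were seen. The computation was tested on simulated Poisson counts per bin with inserted changes. These counts held no gathering of reads at few positions and no difference in mapping quality, so they do not test the choice against either. Planned sequence and gene lists were not run, since no mm9 reference was used here. Python 3.11.15, pandas 2.3.3, numpy 2.4.6 and scipy 1.17.1 were used.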

Additional observations from a re-analysis of the deposited data

How the results depend on the processing

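No paired analysis was possible because each group has 1 library. Depth is a limit, with a median pPGK input of 116 reads in members, and intervals of read ratios cover counting error only. The number of members, 1035 as reported, was 8984 without the mapping quality limit, 611 on minus-strand lines, 457 with an input minimum of 100 and 2828 with 20, 133 at a 2-fold rise and 401 when the lower interval bound had to pass. The remaining settings, with the choice made anew, kept it within 1.5 times, but only 552 of the 1035 members met the limits again with common positions. The case without the limit is not like for like, since the median change over all kept bins was 0.45 there. The changes of named sites were not recomputed for shifted bins or other input minimums, which redraw the bins.

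The share above 0 with SCP1, 40.6% as reported, was 44.0% without the mapping quality limit, 47.2% on plus-strand and 49.3% on minus-strand lines, 52.5% with medians set to 0, 37.5% without top positions, 54.7% by distinct positions, 49.6% at a 2-fold rise, 44.6% by the lower bound and 34.8% in retained members. For pR-Ea the 52.8% became 48.9% with common positions, 61.9% on minus-strand lines, 56.5% with an input minimum of 100, 49.2% with a pseudocount of 10, 56.6% with medians set to 0, 46.1% without top positions, 70.1% by distinct positions, 59.4% at a 2-fold rise, 56.6% by the lower bound and 46.7% in retained members. The share at least 2-fold above input in PMA_I, 47.9%, became 62.3% without the mapping quality limit, 41.1% with common positions, 53.1% on plus-strand and 53.4% on minus-strand lines, 42.3% with a pseudocount of 10, 39.2% without top positions, 14.1% by distinct positions, 74.4% at a 2-fold rise, 62.8% by the lower bound and 43.3% in retained members. The causes were not tested.

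Of 54 named members, 20 kept a change within the counting interval of the reported one with common positions. The number was 4 by distinct positions, 6 without the mapping quality limit and 35 without top positions. It was 21 on plus-strand lines, 22 on minus-strand lines and 42 with both lines of a position counted. With medians set to 0 and with a pseudocount of 10 it was 54. Some named sites changed sign. With common positions the changes were -0.55 at chr2:163527501-163528000, -0.56 at chr2:178263001-178263500, -0.30 at chr5:102064501-102065000, -0.40 at chr7:138560501-138561000, -0.24 at chr8:13918001-13918500, -0.12 at chr11:3069001-3069500, -0.24 at chr12:114662501-114663000 and -0.52 at chr12:114663001-114663500. By distinct positions they were -0.11 at chr2:26226501-26227000, -0.046 at chr3:8769001-8769500, -0.028 at chr8:105186001-105186500, -0.061 at chr12:82094501-82095000, -0.27 at chr13:10732001-10732500, -0.079 at chr16:10886501-10887000, -0.008 at chr19:10826001-10826500, -0.30 at chrM:3001-3500, -0.083 at chrM:11501-12000 and -0.16 at chrM:13001-13500. On minus-strand lines they were -0.56 at chr7:138560501-138561000 and -0.39 at chr10:88387501-88388000, and on plus-strand lines -0.20 at chrM:13001-13500. Without the mapping quality limit they were -0.59 at chr2:6266001-6266500, -0.89 at chr2:163527501-163528000, -0.70 at chr2:178263001-178263500, -2.58 at chr2:179800501-179801000, -1.51 at chr3:157105501-157106000, -1.81 at chr5:102064501-102065000, -0.59 at chr7:138560001-138560500, -0.60 at chr7:138560501-138561000, -4.40 at chr8:13918001-13918500 and -0.45 at chr9:121863001-121863500. In the same setting they were -0.78 at chr11:3069001-3069500, -0.77 at chr11:3477501-3478000, -1.78 at chr12:114662501-114663000, -2.24 at chr12:114663001-114663500, -0.33 at chr16:10886501-10887000, -0.32 at chr16:57910001-57910500, -0.012 at chr17:72814501-72815000 and -0.41 at chr19:24220001-24220500. The cause was not tested.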
